A study of Mus musculus with 8 samples.

Results

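Macrophage-like cells were found in the 2 epithelial libraries of mouse colon assembloids, which are co-cultures of colon organoids and primary colon stromal cells. The cells were chosen by their own transcript counts, as UMIs (unique molecular identifiers, each standing for 1 captured mRNA molecule). Barcodes passed with 500 or more genes and no more than 10% of UMIs from mitochondrial genes, and a passing barcode was a member when it held 1 UMI or more of at least 4 of the 8 genes Csf1r, Adgre1, Cd14, Ctss, Fcer1g, C1qb, C1qc and Mrc1. Members numbered 484 of 29410 passing barcodes in replicate 1 and 248 of 7722 in replicate 2, 732 of 37132 in all. The data bore out the name in only part of them. In 144 and 173 members the 12 epithelial genes that were summed in each barcode, among them Epcam and Krt8, gave under 40 UMIs per 10000, and these are called low-epithelial members. The other 340 and 75 members, called high-epithelial members, carried macrophage genes together with epithelial genes close to the level of epithelial cells, so that all values that follow are given for the low-epithelial members unless all members are named. The limit of 40 was set after the values had been seen, and 24 and 21 members lay near it, between 30 and 50.

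The series holds 8 libraries from C57BL/6 mice, adult males by the study's methods, with 2 biological replicates in each of 4 groups: stromal and epithelial cells of assembloids, epithelial cells of organoids, and epithelial cells of colon tissue. Assembloids were made by placing organoids, grown from colon crypts, into Matrigel with colon stromal cells that had been expanded in culture, and were kept without Wnt surrogate, CHIR-99021, R-spondin 1 and noggin, whereas organoids held no stromal cells. Tissue epithelium came from crypts that were not cultured, and the labels give no genotype, treatment or time for any group. The study describes its stromal cells as EpCAM-negative. In the stromal libraries as used here, 990 of 9020 and 84 of 9048 passing barcodes held at least 2 Epcam UMIs. How the epithelial cells of assembloids were set apart from stromal cells is not given in the sources used here. All libraries were made with 10x 3' chemistry.

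Macrophages are phagocytes of the myeloid lineage. In the colon they lie beneath and around the crypts, where they clear dying cells and microbes. They depend on the receptor Csf1r, whose ligands are Csf1 and Il34. C1qa, C1qb and C1qc form the complement component C1q, Fcer1g and Tyrobp are adaptors that pass on signals from activating receptors, Adgre1 encodes F4/80, Mrc1 encodes a mannose receptor, Cd14 a co-receptor for bacterial lipopolysaccharide and Ctss a lysosomal protease. Ptprc encodes CD45, the surface protein by which leukocytes are usually told from epithelium and stroma.

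The C1q genes lie side by side on chromosome 4 (GRCm38, minus strand), C1qb at chr4:136880129-136886187, C1qc at chr4:136889804-136893065 and C1qa at chr4:136895917-136898803. The RefSeq promoter windows (GRCm38.p6, 250 bases before to 50 after the start, 5′ to 3′) of C1qb at chr4:136886151-136886450 and C1qc at chr4:136892865-136893164, both minus strand, are shown since these genes helped to choose the cells. Those of Lyz2, encoding lysozyme, at chr10:117282223-117282522 on the minus strand and Mmp12, encoding macrophage elastase, at chr9:7344147-7344446 on the plus strand are shown since both genes were among those farthest above the epithelial cells. Capitals mark GAGGAA or its reverse complement TTCCTC, the core of the element bound by the myeloid factor PU.1.
C1qb: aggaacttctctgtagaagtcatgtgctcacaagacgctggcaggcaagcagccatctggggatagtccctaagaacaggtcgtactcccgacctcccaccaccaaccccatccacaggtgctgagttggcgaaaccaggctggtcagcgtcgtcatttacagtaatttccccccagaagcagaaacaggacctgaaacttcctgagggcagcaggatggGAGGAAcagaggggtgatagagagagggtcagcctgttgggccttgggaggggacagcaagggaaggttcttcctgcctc
C1qc: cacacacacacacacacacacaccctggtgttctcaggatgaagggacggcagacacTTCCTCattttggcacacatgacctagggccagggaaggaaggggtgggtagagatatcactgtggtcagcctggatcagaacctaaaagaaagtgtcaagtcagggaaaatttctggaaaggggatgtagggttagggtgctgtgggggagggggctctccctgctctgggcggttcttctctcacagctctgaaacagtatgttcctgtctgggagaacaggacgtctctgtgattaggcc
Lyz2: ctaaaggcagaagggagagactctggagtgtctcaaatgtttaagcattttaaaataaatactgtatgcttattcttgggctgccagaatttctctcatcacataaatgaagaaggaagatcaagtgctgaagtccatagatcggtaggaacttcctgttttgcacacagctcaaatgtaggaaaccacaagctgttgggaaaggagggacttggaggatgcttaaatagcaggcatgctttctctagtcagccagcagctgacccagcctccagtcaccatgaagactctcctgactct
Mmp12: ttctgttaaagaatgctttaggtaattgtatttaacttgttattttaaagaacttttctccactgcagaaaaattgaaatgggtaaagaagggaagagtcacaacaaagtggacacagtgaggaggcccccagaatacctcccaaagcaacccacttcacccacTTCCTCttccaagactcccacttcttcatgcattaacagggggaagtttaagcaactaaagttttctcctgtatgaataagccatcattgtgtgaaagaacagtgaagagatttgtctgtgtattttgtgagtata
The windows of C1qb, C1qc and Mmp12 held 1 match each and that of Lyz2 held 0. Of all 32851 windows in the table, 9289 (28.3%) held the motif on either strand. Among the 20 genes named as farthest above the epithelial cells in all members, 11 had a window, and 9 of their 14 windows held it. Some of the 11 genes had several windows. The genes were ranked in the comparison that chose the cells, so the shares were not tested against each other. A match is only a run of letters, and binding was not measured. Spi1, which encodes PU.1, was itself at 159 and 258 counts per 1000000 (CPM, of the UMIs summed over the cells of a group in 1 library, replicate 1 first) in the low-epithelial members and at 0.619 and 0.381 CPM in epithelial cells.

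The same rule found few cells elsewhere. It kept 4 of 9020 and 4 of 9048 passing barcodes of the stromal libraries, 5 of 4692 and 3 of 4310 of tissue epithelium, and 0 of 4872 and 0 of 8034 of organoids, where 3 counts of the total, the limit used for a count of 0, are 0.0616% and 0.0373% and the exact binomial 95% upper limits are 0.0757% and 0.0459%. In the assembloid epithelial libraries the shares were 1.65% (exact binomial 95% interval 1.50% to 1.80%) and 3.21% (2.83% to 3.63%). The study kept far fewer assembloid epithelial cells than pass here, so these shares hold for the larger total only. For the low-epithelial members alone the shares were 0.490% (0.413% to 0.576%) and 2.24% (1.92% to 2.60%), and the intervals, which cover counting error only, did not overlap. The passing barcodes of these libraries held a median of 3468 and 13261 UMIs, and the part of depth in the shares was not tested. Of the tissue barcodes 4692 of 12137 and 4310 of 16974 passed, and of the assembloid epithelial barcodes 29410 of 32932 and 7722 of 14012. By the study's methods assembloids were digested with Liberase, whereas tissue crypts were shaken loose after EDTA. The stromal matrices were made with version 6.0.1 of the counting program Cell Ranger and the epithelial ones with version 7.1.0. The part of these differences in the shares was not tested. No test was made, since the rule used these counts.

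Levels summed over all passing barcodes of a library, which use no marker rule, were also highest in assembloid epithelium. C1qa had 32.4 CPM and 72.9 CPM in assembloid epithelium, 2.82 and 3.92 CPM in assembloid stroma, 0.0425 and 0.406 CPM in tissue epithelium and 0 UMIs in both organoid libraries, where a count of 0 allows up to 0.0160 and 0.0323 CPM. Ptprc had 6.06 and 12.4 CPM in assembloid epithelium, 0.0989 and 0.265 CPM in assembloid stroma, 2.10 and 2.22 CPM in tissue epithelium and 0.0213 and 0.0108 CPM in organoids. The lowest assembloid epithelial library lay above all 6 others for both genes. Tissue epithelium came next for Ptprc and assembloid stroma for C1qa. From bulk sums alone, more cells of a type and more RNA per cell cannot be told apart. Levels within the barcodes that passed the rule, also those of the stromal libraries, are given further below. The part that the different dissociation of tissue and assembloids has in these levels was not tested either. The stromal and epithelial matrices also came from different Cell Ranger versions, 6.0.1 and 7.1.0, and the part of this in the levels was not tested.

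Members held more of the UMIs of these genes than of all UMIs. The members held 2.27% and 3.90% of all UMIs of their libraries, but 67.5% and 95.2% of the C1qa UMIs, 74.4% and 97.0% of the Ptprc UMIs and 66.2% and 94.2% of the Lyz2 UMIs. The low-epithelial members alone held 0.629% and 2.01% of all UMIs, 41.3% and 76.9% of the C1qa UMIs, 46.5% and 76.2% of the Ptprc UMIs and 41.8% and 74.3% of the Lyz2 UMIs. Cd14 and Ctss, which the rule also used, were less concentrated in the members, which together held 30.1% and 42.2% of Cd14 UMIs and 30.6% and 44.2% of Ctss UMIs. Both genes had UMIs in epithelial cells. Cd14 was seen in 4.31% and 14.5% of barcodes with at least 2 Epcam UMIs in assembloids and in 62.1% and 27.4% of those in organoids, where no barcode met the rule. Csf1r was seen in 1.33% and 2.43% of such barcodes in assembloids and in 0.482% and 0.347% in organoids. The assembloid shares include the 352 and 141 members that held at least 2 Epcam UMIs.

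Of the 732 members, 317 were low-epithelial, at 29.8% of members in replicate 1 and 69.8% in replicate 2. In low-epithelial members the 12 epithelial genes gave a median of 14.1 and 11.8 UMIs per 10000, against 106 and 95.3 in high-epithelial members and 129 and 135 in the epithelial cells used for comparison. Those comparison cells, called Epcam cells, had at least 2 Epcam UMIs and none of the 8 marker genes and numbered 18165 and 3609. A list of 20 leukocyte and myeloid genes, none of which was used by the rule, gave medians of 168 and 189 UMIs per 10000 in low-epithelial members, 34.2 and 71.3 in high-epithelial members and 0 in Epcam cells of both libraries. High-epithelial members thus lay between the other cell groups in leukocyte genes and near Epcam cells in epithelial genes.

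**Figure D1:**
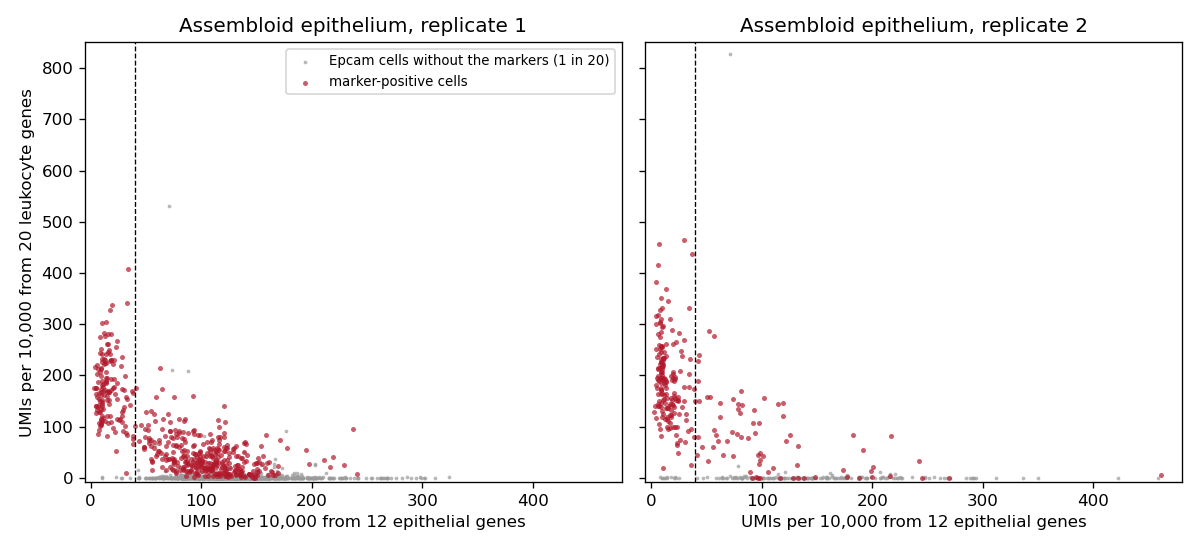
Each point is 1 barcode of an assembloid epithelial library, with UMIs per 10000 from 12 epithelial genes on the x axis and from 20 leukocyte genes on the y axis; the dashed line marks 40. Marker-positive cells (red) left of the line had medians of 168 and 189 leukocyte UMIs per 10000, while those to its right spread down to the grey Epcam cells, of which 1 in 20 is drawn.

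The number of markers followed this split. Of the 170 members of replicate 1 with 4 markers, which lie just inside the rule, 6 were low-epithelial, and of the 53 with all 8 markers 38 were. In replicate 2 these numbers were 5 of 23 and 80 of 102. Barcodes just outside the rule, with 3 markers, numbered 416 and 132, held a median of 14.5 and 0.402 leukocyte UMIs per 10000, and were low-epithelial in 6 and 6 cases. Barcodes just inside it held 24.1 and 2.53. The lower edge of the rule was therefore mostly made of barcodes with epithelial counts, in replicate 2 also with high depth (median 25508 UMIs with 4 markers, against 13261 over all passing barcodes).

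**Figure D2:**
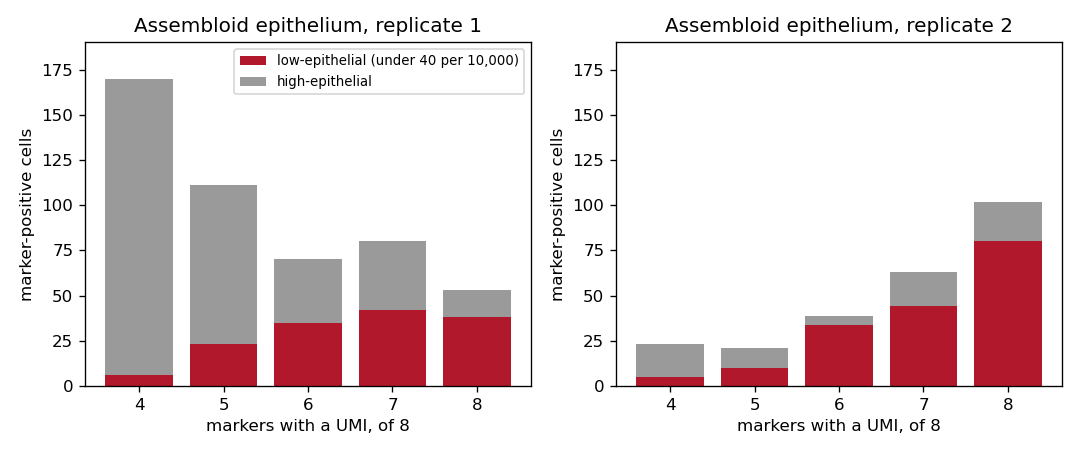
Bars give the number of marker-positive cells (y axis) by the number of the 8 markers with a UMI (x axis) in each assembloid epithelial library, split into low-epithelial (red) and high-epithelial (grey). Low-epithelial cells were 6 of 170 at 4 markers and 38 of 53 at 8 markers in replicate 1, and 5 of 23 and 80 of 102 in replicate 2.

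High-epithelial members held the macrophage genes at lower levels than low-epithelial members. Over the 8 markers the share was 26.1% (Csf1r) to 37.3% (Cd14) in replicate 1 and 20.9% (Mrc1) to 30.8% (Ctss) in replicate 2. Over the 20 leukocyte genes its median was 26.8% and 28.9%, with Cx3cr1 highest at 93.2% and 66.1%. The same barcodes held the 12 epithelial genes at a median of 82.1% and 77.9% of the level in Epcam cells. They held 4703.5 and 26542 UMIs at the median, against 3440 and 10086 in Epcam cells and 7349.5 and 12665 in low-epithelial members. Doublets were not called, and the parts that 2 cells in 1 droplet and free RNA have in these barcodes were not tested.

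Low-epithelial members in turn held epithelial genes at a median of 12.3% and 8.64% of the level in Epcam cells, with Epcam at 160.5 and 154 CPM and Krt8, a keratin of simple epithelium, at 322 and 279 CPM. Fibroblast-like cells of the same libraries, which had at least 4 of 8 fibroblast genes, no marker and the same limit of 40, held 149 and 129 CPM of Epcam and 279 and 262 CPM of Krt8. The median log2 ratio between these cell groups over 11 epithelial genes was 0.12 and 0.09. Since the limit was applied to both, this is a description of what remained below it.

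The 8 marker genes are given as description only, since they chose the cells. In low-epithelial members Fcer1g had 2336 and 2859 CPM, C1qb 1527 and 2139.7 CPM, C1qc 1361 and 1521 CPM and Ctss 1086 and 739 CPM. Mrc1 had 696 and 752 CPM, Csf1r 297 and 262 CPM, Cd14 212 and 275 CPM and Adgre1 166 and 301 CPM. The replicates were within 2-fold for each of these genes. After each cell had been thinned to 2000 UMIs, which left 135 and 173 low-epithelial members, Fcer1g was seen in 97.8% and 96.5% of them, Mrc1 in 61.5% and 59.5%, Csf1r in 38.5% and 40.5% and Adgre1 in 28.1% and 37.0%. Before thinning, Csf1r had been seen in 74.3% and 85.0% and Adgre1 in 58.3% and 73.4%.

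The leukocyte genes that the rule did not use were present in both libraries. A gene is called here when its CPM, with 1 CPM added, was at least 4-fold apart in the same direction in both libraries. This comparison is the one that chose the cells, so it has no p-value, and the genes are given as their description. Among all members 730 of 19629 genes with at least 10 UMIs were called higher than in Epcam cells (3.72%) and 19 lower (0.0968%). Among low-epithelial members 1124 of 19543 were higher (5.75%) and 813 lower (4.16%). These shares over all genes are the background for the counts of each list against Epcam cells below. Of the 20 leukocyte genes, 18 were higher in all members and 19 in low-epithelial members, with median log2 ratios of 7.19 and 7.46 in low-epithelial members, beside -0.14 and -0.16 over all genes tested.

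Ptprc was at 448 and 471 CPM in low-epithelial members, 103 and 137 CPM in high-epithelial members, 0.579 and 0.202 CPM in Epcam cells and 0.502 and 0.209 CPM in low-epithelial fibroblast-like cells. Its log2 ratios over Epcam cells were 8.15 and 8.62. After thinning it was seen in 48.9% and 49.7% of low-epithelial members (95% intervals 40.2% to 57.6% and 42.0% to 57.4%) and in 0.148% and 0.0311% of Epcam cells. Cx3cr1, a chemokine receptor of many tissue macrophages, was the 1 leukocyte gene of 20 that was not called. It had 152 and 95.1 CPM in low-epithelial members, 190.2 and 242 CPM in Epcam cells and 577 and 136 CPM in low-epithelial fibroblast-like cells. Only 1.47% and 2.12% of its UMIs lay in members.

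The 20 genes farthest above Epcam cells in all members, with at least 50 CPM in both libraries, were Cybb, C1qa, Lyz2, Arg1, Mmp12, Cd86, Mmp9, Clec4n, Msr1, Ptprc, Laptm5, Ccl12, Tyrobp, Pf4, Cd52, Marco, Lilrb4a, Cfp, Srgn and Mgl2. Cybb, the catalytic subunit of the phagocyte NADPH oxidase, led with 846 and 940.2 CPM in low-epithelial members and 1.32 and 0.717 CPM in Epcam cells, log2 ratios of 8.51 and 9.10. Lyz2 had 7033 and 9455 CPM against 20.8 and 16.1 CPM, and C1qa 2129 and 2786 CPM against 5.42 and 3.56 CPM. Cd86, a co-stimulatory ligand for T cells, had 561 and 713 CPM against 0.825 and 0.381 CPM, and Tyrobp 1653 and 1815 CPM against 6.52 and 3.74 CPM. After thinning, C1qa was seen in 93.3% and 94.8% of low-epithelial members and Lyz2 in 97.8% and 98.3%, so that nearly all of these barcodes held both.

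Secreted matrix proteases were among the same genes. Mmp9, a gelatinase, had 3246 and 3354 CPM in low-epithelial members and 9.67 and 5.90 CPM in Epcam cells. Mmp12 had 1290.0 and 817 CPM against 3.66 and 0.762 CPM. The scavenger receptor genes Msr1 and Marco had 507 and 458 CPM and 302 and 378 CPM, against 0.805 and 0.404 CPM and 0.540 and 0.583 CPM. Clec4n, which encodes the fungal receptor dectin-2, had 801 and 823 CPM against 1.92 and 1.03 CPM, and Srgn, the granule proteoglycan serglycin, 1193 and 990.4 CPM against 4.98 and 2.91 CPM. The levels of these genes in low-epithelial members were within 2-fold between the replicates.

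**Figure D3:**
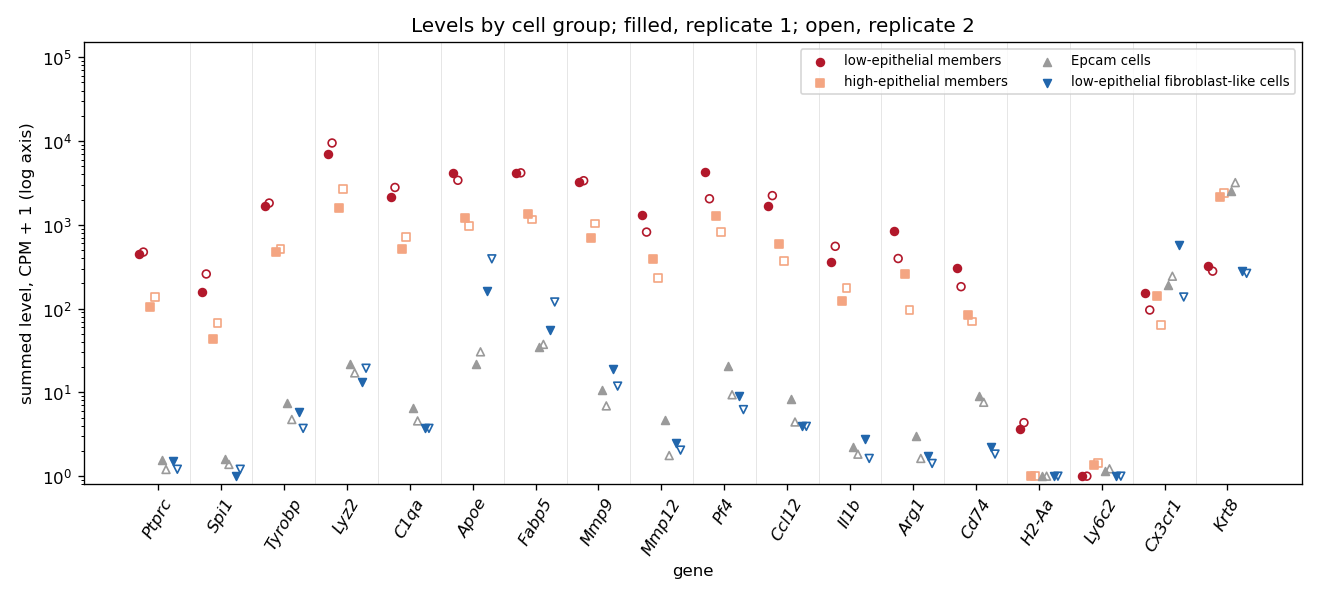
Levels (y axis, CPM + 1, log axis) of 18 genes (x axis) summed over the cells of each group in the 2 assembloid epithelial libraries; filled symbols are replicate 1 and open symbols replicate 2. Ptprc to Cd74 lie highest in low-epithelial members, H2-Aa and Ly6c2 stay under 4 CPM in every group, and Krt8 is highest in Epcam cells (2556 and 3185 CPM).

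Genes of resident macrophages were present only in part. Of the list, 10 of 15 tested genes were called higher in low-epithelial members and 1 lower, Cbr2, a carbonyl reductase, with median log2 ratios of 4.28 and 4.58. Pf4, a chemokine made by platelets and some macrophages, had 4266 and 2042 CPM and Maf, a transcription factor of macrophage differentiation, 894 and 683 CPM. The scavenger receptor Stab1 had 386 and 332 CPM and Selenop, a selenium carrier, 387 and 420.2 CPM. Several genes that mark long-lived tissue macrophages, in the gut among them Timd4, lay near 0: Timd4 had 0 and 1.68 CPM, Vsig4 0 and 0.419 CPM, Lyve1 0 and 1.68 CPM and Cd163 3.61 and 2.09 CPM, and Cd209f had 0 UMIs in all 732 members. Folr2, a folate receptor, was higher at 153 and 116 CPM.

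Monocyte genes were mostly low. Of 9 tested genes, 2 were called higher, F13a1 (coagulation factor XIII, 103 and 125 CPM) and the integrin Itgal (24.3 and 34.8 CPM), and 1 lower, Plac8 (75.7 and 95.1 CPM against 796 and 897 CPM in Epcam cells). Ly6c2, which marks inflammatory monocytes, had 0 UMIs in low-epithelial members, Chil3 had 0 in all members, and Ccr2, the receptor for Ccl2, had 0 and 0.419 CPM. One UMI corresponds to 0.901 and 0.419 CPM in these sums, so that the nonzero value of Ccr2 is 1 UMI. Against low-epithelial fibroblast-like cells 5 of 8 tested genes were called lower, Fn1, Plac8, Hp, Vcan and Nr4a1, and Fn1, fibronectin, had 501 and 734 CPM in those cells and 2.70 and 10.1 CPM in low-epithelial members.

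Genes for antigen presentation on MHC class II were present in part. Cd74, the invariant chain, had 304 and 181 CPM in low-epithelial members and 8.14 and 6.61 CPM in Epcam cells, and H2-Ab1 had 108 and 95.5 CPM against 4.54 and 5.04 CPM. H2-Aa, the partner chain of H2-Ab1, had only 2.70 and 3.35 CPM, H2-Eb1 0 and 3.35 CPM, and Ciita, the regulator of the whole group, 0 UMIs. After thinning, Cd74 was seen in 37.8% and 23.7% of low-epithelial members and H2-Ab1 in 12.6% and 15.0%. Of 8 tested genes 4 were called higher, Cd74, H2-Ab1, H2-DMa and H2-DMb1. Against low-epithelial fibroblast-like cells 2 of 5 were called higher, Cd74 and H2-DMb1, and with 10 CPM added 2 were called higher in all members than in Epcam cells. H2-Ab1 was not apart from fibroblast-like cells by 4-fold, which held 38.4 and 51.3 CPM.

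Most defining genes of other leukocytes had few or 0 UMIs in low-epithelial members. All 8 mast cell genes had 0 UMIs, among them the carboxypeptidase Cpa3 and the tryptase Tpsb2. Of the T cell, NK cell and ILC list 7 of 10 had 0 UMIs, including Cd3e, Cd3g, Cd8a and Trac, and of the B and plasma cell list 6 of 8, including Cd79a, Ms4a1 and Jchain. Il7r, an interleukin receptor chain of lymphocytes, was the exception, at 37.9 and 23.5 CPM against 0.0491 and 0.0448 CPM in Epcam cells. Of dendritic cell genes, Flt3, Cd209a and Siglech had 0 UMIs, Zbtb46 had 3.61 and 7.96 CPM and Irf8, which macrophages also use, 124 and 142 CPM. Of neutrophil genes, S100a9 and Retnlg had 0 UMIs, S100a8 had 1.80 and 3.77 CPM and Csf3r 11.7 and 14.2 CPM, while Mmp8, a neutrophil collagenase, had 24.3 and 6.28 CPM and Ly6g 15.3 and 16.8 CPM. Summed over each list, the dendritic cell genes gave 1.52 and 1.80 UMIs per 10000, the neutrophil genes 0.550 and 0.415, the T cell, NK cell and ILC genes 0.397 and 0.251 and the B and plasma cell genes 0.288 and 0.230. Endothelial genes gave 0.424 and 0.184 and glial and neuronal genes 0.0901 and 0.0293. By the 4-fold rule against Epcam cells, 2 of 6 dendritic cell genes (Batf3 and Irf8), 2 of 7 neutrophil genes (Csf3r and Mmp8) and 1 of 4 T cell, NK cell and ILC genes (Il7r) were called higher in low-epithelial members. In all members these numbers were 0 of 7, 1 of 7 (Mmp8) and 1 of 4 (Il7r). None was called higher among 3 mast cell, 4 B and plasma cell, 8 endothelial, 5 glial and neuronal and 8 fibroblast genes, and Ly6g, Sdc1 and Dcn were called lower in low-epithelial members.

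Of the lysosome and phagocytosis list 15 of 20 genes were called higher than in Epcam cells and 0 lower, with median log2 ratios of 2.95 and 3.11. Cathepsin B (Ctsb) had 2931 and 2805 CPM in low-epithelial members and 151 and 193 CPM in Epcam cells, Psap, the saposin precursor, 1814 and 1739 CPM against 110.2 and 135 CPM, and cathepsin D (Ctsd) 1515 and 1676 CPM against 194 and 207 CPM. Cathepsin L (Ctsl) had 819 and 687 CPM in low-epithelial members and 1124 and 1551 CPM in fibroblast-like cells, which is under 4-fold apart. Axl, a receptor for dying cells, had only 1.80 and 4.61 CPM, while the related receptor Mertk had 232 and 284 CPM, against 9.99 and 13.9 CPM in Epcam cells. Against low-epithelial fibroblast-like cells 11 of 19 tested genes were called higher and 1 lower, Axl.

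Of the lipid-associated genes, Apoe, the lipid carrier, had 4198 and 3395 CPM in low-epithelial members, 20.9 and 29.5 CPM in Epcam cells and 161 and 391 CPM in fibroblast-like cells. Fabp5, a fatty acid binding protein, had 4097 and 4163 CPM against 34.0 and 36.4 CPM. Gpnmb had 367 and 373 CPM, the cholesterol exporter Abca1 441 and 438 CPM and Spp1, osteopontin, 469.7 and 329 CPM, but Spp1 was also present in fibroblast-like cells at 279.8 and 338 CPM. Trem2, the lipid receptor that usually marks such cells, had only 41.5 and 52.8 CPM and was seen after thinning in 5.93% and 9.83% of low-epithelial members. In all, 8 of 12 genes were called higher than in Epcam cells and 6 of 12 higher than in low-epithelial fibroblast-like cells. Over all genes, 5.57% of 14841 were higher and 7.91% lower in that second comparison.

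Of the iron and haem list 7 of 10 genes were called higher than in Epcam cells and 0 lower, with median log2 ratios of 3.04 and 3.32. Against low-epithelial fibroblast-like cells 4 of 9 were called higher and 0 lower, with median log2 ratios of 0.89 and 1.35. Fth1, the ferritin heavy chain, had 18412 and 23681 CPM against 1165 and 1550.1 CPM in Epcam cells, and Hmox1, haem oxygenase, 277 and 448 CPM against 67.8 and 94.3 CPM. The iron exporter Slc40a1 had 205 and 204 CPM against 17.0 and 20.3 CPM. Spic, a transcription factor of iron-recycling macrophages, was low at 14.4 and 49.0 CPM and was among the genes over 2-fold apart between replicates (log2 1.70, replicate 2 over 1). Fibroblast-like cells held 783 and 779.9 CPM of Hmox1, so that this gene did not set members apart from them.

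Chemokine genes were called higher in larger part than all genes. Of the list 11 of 15 tested genes were called higher than in Epcam cells, with median log2 ratios of 4.83 and 4.80. Ccl12, a ligand of Ccr2, had 1697 and 2226 CPM, Ccl6 1166 and 558 CPM, Ccl4 791 and 803 CPM and Ccl3 352 and 452 CPM, and none of them passed 10 CPM in Epcam cells, where Ccl12 had 7.32 and 3.43 CPM and Ccl3 1.40 and 0.830 CPM. The neutrophil chemokine Cxcl2 had 1194 and 783 CPM against 76.7 and 43.5 CPM. Ccl2 and Ccl7, which attract monocytes, were shared with fibroblast-like cells: Ccl2 had 643 and 645 CPM in low-epithelial members and 485 and 460.4 CPM there, and Ccl7 342 and 321 CPM and 629 and 619 CPM. Only 6 of 15 chemokine genes were called higher than in low-epithelial fibroblast-like cells, and 1 was called lower, Cxcl1. Ccl17 had 0 UMIs in all members.

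Of the inflammatory cytokines and mediators, 6 of 14 tested genes were called higher, namely Il1b, Il1a, Il10, Tgfb1, Osm and Nos2. Il1b, interleukin 1 beta, had 362 and 552 CPM against 1.26 and 0.830 CPM in Epcam cells and was seen after thinning in 29.6% and 37.6% of low-epithelial members. Nos2, inducible nitric oxide synthase, had 201 and 141 CPM against 12.9 and 11.3 CPM. Tnf was not called, at 43.3 and 37.7 CPM against 38.2 and 35.0 CPM, and Il6 had 10.8 and 11.3 CPM, less than the 74.6 and 52.9 CPM of fibroblast-like cells. Against low-epithelial fibroblast-like cells 6 of 14 genes were called higher, Il1rn, Il1a, Il1b, Osm, Nos2 and Tnf, and 3 lower, Il6, Lif and Il33. Il12b had 0 and 0.419 CPM and Il12a 0 UMIs in all members.

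Of the alternative activation list, 5 of 7 tested genes were called higher in low-epithelial members and 3 of 8 in all members, and the number in low-epithelial members was 4 with the limit at 20 or 80. Arg1, arginase 1, had 852 and 395 CPM in low-epithelial members against 2.04 and 0.628 CPM in Epcam cells, and Mgl2, a lectin, 356 and 229.6 CPM against 0.874 and 0.157 CPM. Retnla and Chil3, which interleukin 4 induces in mouse macrophages, had 0 UMIs in all members. After thinning, Arg1 was seen in 41.5% and 24.9% of low-epithelial members (95% intervals 33.1% to 50.3% and 18.6% to 32.0%) and in 0.492% and 0.218% of Epcam cells. Arg1 and Nos2, which use the same amino acid, arginine, were thus both above Epcam cells in the same groups of cells. The level of Arg1 in replicate 1 was over 2-fold that in replicate 2 (log2 -1.11, replicate 2 over 1).

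Of the complement list, C1qa, C3, Cfp, C3ar1 and C5ar1 were called higher, 5 of 10 tested genes. Cfp, properdin, had 596 and 605 CPM against 1.72 and 0.942 CPM and C3ar1, a receptor for a C3 fragment, 243 and 244 CPM against 0.530 and 0.247 CPM. C3 was present in fibroblast-like cells too, at 280.1 and 401 CPM beside 212 and 207 CPM in low-epithelial members. Against low-epithelial fibroblast-like cells 4 of 10 genes were called higher and 3 lower, C1ra, C4b and Cfb, with median log2 ratios of -0.32 and -0.73. Interferon-stimulated genes were higher in 3 of 11 tested cases against Epcam cells. Against low-epithelial fibroblast-like cells 0 of 11 were higher and 1 lower, Ifi44, with median log2 ratios of -0.84 and -0.23. Bst2 had 191 and 301 CPM and Rsad2 111 and 90.1 CPM.

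**Figure D4:**
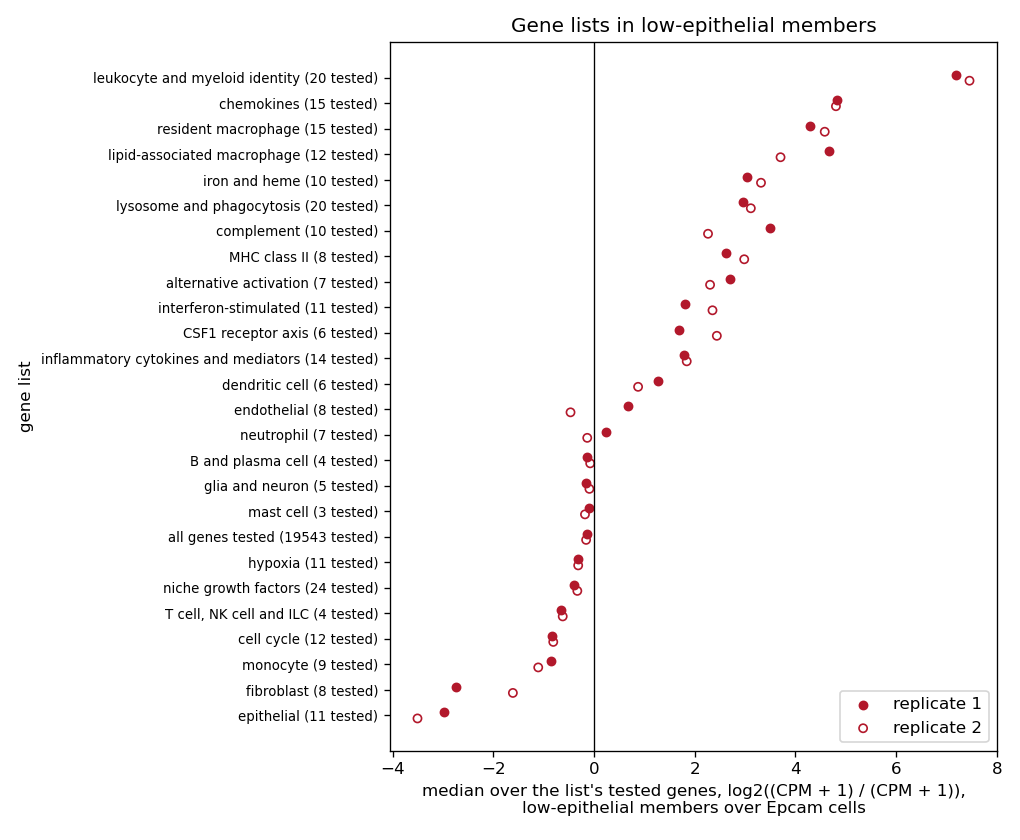
For each gene list (y axis, number of tested genes in brackets), points give the median log2 ratio of low-epithelial members over Epcam cells (x axis) in replicate 1 (filled) and replicate 2 (open). The leukocyte list lies highest at 7.19 and 7.46, the epithelial list lowest at -2.99 and -3.51, and all genes tested lie at -0.14 and -0.16.

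Of the Csf1 receptor ligands, Csf1 had 3.61 and 5.45 CPM in low-epithelial members, 3.37 and 6.50 CPM in Epcam cells and 57.0 and 59.2 CPM in low-epithelial fibroblast-like cells. Il34, the second ligand, had 85.5 and 92.6 CPM in Epcam cells, 13.8 and 11.1 CPM in low-epithelial fibroblast-like cells and 30.7 and 3.77 CPM in low-epithelial members, where the replicates were over 2-fold apart (log2 -2.73, replicate 2 over 1). Over all passing barcodes of the stromal libraries Csf1 had 58.6 and 95.8 CPM and Il34 4.67 and 6.58 CPM. Csf2 had 0 UMIs in all members and 0.00982 and 0 CPM in Epcam cells, while its receptor chains Csf2ra and Csf2rb had 64.9 and 57.4 and 115 and 73.7 CPM in low-epithelial members.

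Of 24 tested growth factors of the crypt niche, 4 were called higher in low-epithelial members, Tgfb1, Igf1, Osm and Pdgfb, and 2 lower, Areg and Ereg. The 4 are 16.7% of the list, beside 5.75% of all genes called higher and 4.16% called lower. Pdgfb, a mitogen for fibroblasts, had 69.4 and 73.7 CPM against 1.29 and 1.03 CPM in Epcam cells and 0.251 and 0 CPM in fibroblast-like cells. Osm, oncostatin M, had 31.6 and 26.8 CPM against 0.0786 and 0.0673 and 0 and 0 CPM. Tgfb1 had 177 and 188 CPM against 14.6 and 18.9 CPM and 50.2 and 44.8 CPM. Igf1, insulin-like growth factor 1, had 34.3 and 62.8 CPM in members and 85.9 and 141 CPM in fibroblast-like cells. The Wnt agonist Rspo3 (0.901 and 2.93 CPM), the Bmp inhibitor Grem1 (9.01 and 16.3 CPM) and Wnt2b (0.901 and 1.68 CPM) were low, and Rspo1, Nog, Wnt9b, Wnt10a and Bmp7 had 0 UMIs in low-epithelial members. Against low-epithelial fibroblast-like cells 2 of the 24 were called higher, Osm and Pdgfb, and 9 lower, among them Grem1, Rspo1, Rspo3 and Wnt5a. The 2 are 8.33% of the list, near the 5.57% of all genes called higher in that comparison, where 7.91% were called lower.

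Cell cycle genes were present in low-epithelial members without any being called in either direction (0 of 12). Mki67 had 86.5 and 67.9 CPM against 100.3 and 89.6 CPM in Epcam cells and 32.9 and 34.9 CPM in low-epithelial fibroblast-like cells, and Top2a 146 and 71.6 CPM against 264 and 172 CPM and 127 and 112 CPM. After thinning, Mki67 was seen in 9.63% and 7.51% of low-epithelial members and 15.6% and 13.7% of Epcam cells. Hypoxia genes gave 1 of 11 higher (Hilpda, 312 and 392 CPM against 71.0 and 92.1 CPM) and 2 lower (Car9 and Egln3), and 0 of 11 higher in all members. The 1 of 11 (9.09%) was near the 5.75% of all genes called higher.

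The genes lowest in all members against Epcam cells, among those with at least 50 CPM, were Slc25a48, Limk2, Erbb3, Ttc39b and Gm29585, with log2 ratios between -1.11 and -2.26. None of these was 4-fold lower in both libraries when all members were counted. Erbb3, a receptor for neuregulins, had 45.1 and 36.0 CPM in low-epithelial members, 469.5 and 238 CPM in high-epithelial members and 801 and 645 CPM in Epcam cells. Among low-epithelial members the epithelial list was called lower in 10 of 11 genes, which the limit on these genes fixed. The goblet cell genes Spink4 (82.9 and 109 CPM against 879.6 and 1456 CPM) and Agr2 (57.7 and 101 CPM against 573 and 1479.7 CPM), which the limit did not use, were low as well. The limit did use the goblet cell gene Muc2 and general epithelial genes, so this is not a separate check.

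Low-epithelial members of the replicates were close in most listed genes. Of 245 listed or named genes with at least 10 UMIs in them, 200 (81.6%) were within 2-fold, 26 were higher in replicate 1 and 19 in replicate 2, with a median log2 difference of 0.06. The set includes the marker genes of the rule, the epithelial genes that the limit capped and genes named for high ratios in both libraries. Genes named for differing most between the libraries are also in it. The share within 2-fold is thus partly fixed by this choice, and it describes these genes only. Pf4 (log2 -1.06), Ccl8 (-1.24), Ccl6 (-1.06) and Arg1 (-1.11) were higher in replicate 1, and Il1b (0.61), Lyz2 (0.43) and C1qa (0.39) were under 2-fold higher in replicate 2. The most different genes with at least 50 CPM in both were 1600010M07Rik (224 and 50.7 CPM), Bc1 (266 and 91.3 CPM) and Agbl3 (155 and 54.5 CPM), all higher in replicate 1. In all members the genes most apart were Babam2, Erbb3, Dnase1l3, F630040K05Rik, Ms4a6c, Cdk12, 2200002D01Rik, Zfp444, Tbxas1 and Bc1, beside low-epithelial shares of 29.8% and 69.8%. Dnase1l3, Ms4a6c and Tbxas1 were the 3 of these that were higher in replicate 2. Dnase1l3, a DNase that digests DNA from dying cells, had 65.7 and 172 CPM in all members, and Babam2, a DNA repair gene, 1139 and 394 CPM. One library per replicate gives no error for such a difference, and it was not tested.

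**Figure D5:**
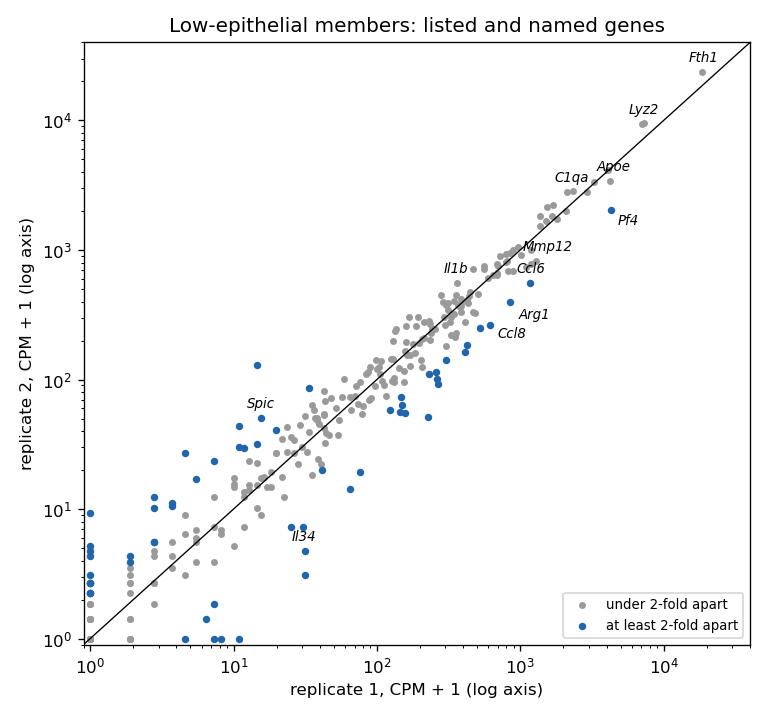
Each point is 1 listed or named gene, with its level in low-epithelial members of replicate 1 (x axis) and replicate 2 (y axis), in CPM + 1 on log axes; blue marks genes at least 2-fold apart and the line marks equal levels. Abundant genes lie near the line, while Pf4 (4266 and 2042 CPM) and Arg1 (852 and 395 CPM) lie on the side of replicate 1.

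The 4 barcodes that passed the rule in each stromal library were too few for a test between stromal and epithelial libraries, for which at least 20 per library had been set. All 8 had 0 Epcam UMIs. Their 8 fibroblast genes summed to 56.9 and 7.25 UMIs per 10000, against 109.8 and 153 in the other stromal barcodes and 0.811 and 3.15 in the low-epithelial members, and the part of fibroblast RNA in their values was not tested. Their leukocyte genes summed to 247 and 275 UMIs per 10000, against 170 and 197 in the low-epithelial members, from totals of 80652 and 93784 UMIs, of which 1 corresponds to 12.4 and 10.7 CPM. Lyz2 had 16007 and 15365 CPM, C1qa 5245 and 5534 CPM and Stab1 1488 and 1066 CPM in these barcodes. Of the 20 leading genes of all members, 18 were at least 4-fold above the other stromal barcodes in both libraries. The number with a UMI in both was also 18, and 1 UMI suffices for a gene near 0 in the other barcodes. The marker rule lay behind both the gene list and the choice of these barcodes, so the count is description only. Arg1 had 37.2 and 0 CPM, Il1b 86.8 and 0 CPM and Nos2 0 and 0 CPM there, all below the low-epithelial members. Cd209f, at 0 in the members, had 409 and 42.7 CPM. With 4 cells a library these values describe those cells only.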

How the data were processed

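Single-cell libraries of mouse colon assembloids, organoids and tissue were analysed from UMI counts per gene and barcode, which the authors deposited as filtered matrices without normalization. Per the file headers, Cell Ranger 6.0.1 made the stromal and 7.1.0 the epithelial matrices. The labels name Cell Ranger 6 and mm10, and whether introns were counted is not given in the sources used here. Depth was 36970661 to 187583982 UMIs over the passing barcodes of a library. The filter of 500 genes and 10% mitochondrial counts is the one that the study's methods state for the stromal cells. The study kept far fewer assembloid epithelial cells than the 37132 that pass it here, but more tissue and organoid epithelial cells.

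Members and gene lists were chosen with earlier results of these data known, and 26 lists were used. UMIs were summed over members, their low- and high-epithelial parts, Epcam cells and fibroblast-like cells per library, scaled to CPM and compared within a library as log2 ratios with 1 CPM added, for genes with at least 10 UMIs. The 8 markers and Epcam were left out of these counts. Scripts were tested on simulated data with known changes. Cells are not replicates, and no p-value was computed. Shares of cells were taken after thinning each cell to 2000 UMIs, which left out 46 and 6 members and 3932 and 393 Epcam cells. Doublets were not removed, and leaving out the top 6% of UMIs was an alternative. The libraries shared few barcodes (134 between the 2 assembloid epithelial libraries, none of them a member of both), and there were 0 columns of samples not used. Named genes were the 8 markers, for each list up to 6 genes with the highest level in members and those at 0, the 20 highest and 5 lowest ratios with at least 50 CPM, and the 10 genes most different between the libraries, without mitochondrial, ribosomal protein, immunoglobulin, Xist and Y-linked genes. Further list genes, and genes of the same rankings in low-epithelial members, were named after their values had been seen. The test between stromal and epithelial members was planned for at least 20 barcodes a library and was not run. Promoters came from RefSeq (GRCm38.p6) and gene positions from GENCODE M21, which holds 32158 of 32285 identifiers. Python 3.11.15, numpy 2.4.6, scipy 1.17.1, pandas 2.3.3 and matplotlib 3.10.9 were used, and edgeR 4.0.16 in R 4.3.3 for TMM factors. Alternatives were other marker numbers, cell filters, pseudocounts, count filters, folds, TMM factors, reference cells, epithelial limits and depths, and each replicate left out.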

Additional observations from a re-analysis of the deposited data

Results flagged for a closer look

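In the stromal libraries, which the choice of members did not use, 4 barcodes in replicate 1 and 4 in replicate 2 met the marker rule, beside 5 and 3 in tissue epithelium, also outside the libraries of the rule, and 0 and 0 in organoids. They were noticed because barcodes that meet the rule lie outside the libraries in which it was made.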

How the results depend on the processing

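The number of members was 484 and 248. It became 900 and 380 with at least 3 markers, 314 in replicate 1 with at least 5, and 71 and 43 when only members with 0 Epcam UMIs were kept. It stayed within 1.5 times under stricter and looser limits on genes and mitochondrial UMIs, without Cd14 and Ctss, and without the top 6% of UMIs. The number of genes called higher in all members was 730. It was 246 with 10 CPM added, 1561 at 2-fold, 484 against all fibroblast-like cells (no limit on epithelial genes), and, under limits added after seeing the data, 1124 and 1122 with members under 40 and 20 epithelial UMIs per 10000. Without replicate 1 it was 944 and without replicate 2 824. TMM factors (721), no filter (730), 0.1 CPM added (1050), members with 0 Epcam UMIs (1015), at least 5 markers (835), a limit of 80 (987) and low-epithelial members against low-epithelial fibroblast-like cells (827) kept it within 1.5 times. Shares of all members with a UMI moved with depth: Ptprc was seen in 26.3% and 47.1% at 2000 UMIs, 47.9% and 80.2% unthinned and 15.2% and 28.2% at 1000 UMIs, and Arg1 in 26.0% and 21.1%, 39.7% and 36.7%, and 20.8% and 15.7%. Over the gene lists, 301 of 350 counts under the alternatives stayed within 1.5 times. Among the others were those of the dendritic cell, neutrophil, interferon, hypoxia, MHC class II, iron and haem, and alternative activation lists. The 301 include lists with 0 genes called that stayed at 0, such as the mast cell, cell cycle and fibroblast lists. They also include the setting without a filter on low counts, where no list could move, since genes called higher already passed that filter. The 301 are thus partly fixed in advance. No paired analysis was possible because no test was run to which a block could be added: the design set at least 20 barcodes a library for the test between stromal and epithelial members, and each stromal library held 4. For the same reason DESeq2, no filter, left-out libraries and members with 0 Epcam UMIs were not run for it. Depth limits the low-epithelial sums, in which 1 UMI is 0.901 and 0.419 CPM.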
